A study of Mus musculus with 6 samples.

Results

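Aged-only regions are stretches of open chromatin that were called as a peak in all 3 lists from aged long-term haematopoietic stem cells and in none of the 3 lists from young ones. They were selected on those calls alone: the autosomal peaks of all 6 lists were merged wherever they shared at least 1 bp, and 437 of the 844567 merged regions had this pattern (0.0517%). Their presence in aged and absence in young lists is therefore how they were chosen and not a result. Most merged regions belong to a single list: 717555 of them (85.0%) were called in 1 list and no other.

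The cells were sorted from bone marrow of C57BL/6 mice, which carry no engineered allele by the labels, as cells without lineage markers or Flk2 and Cd34 and with ckit and sca1. Both ages were then cultured overnight at 3% oxygen in HBSS with FBS, so no group was profiled straight from the marrow. The groups are aged 1, 2 and 3 and young 1, 2 and 3. The titles add 2 numbers that no label explains: the number after "exp" is 2, 5 and 3 for replicates 1 to 3 at both ages, and the number before it is 2500 for both samples of replicate 2 and 5000 for both of replicate 3, but differs between the ages for replicate 1. Ages in weeks and sex are not in the labels, and nothing states that they are separate or pooled mice, so a p-value here measures sample-to-sample spread alone, part of which can be technical.

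The lists were not equally able to call a region, and 2 stood apart. Of regions called in the 5 other lists, aged 3 called 75.7% and young 2 called 62.3%, whereas the other 4 lists called 97.5% to 99.6%. A −log10 q of 5 or more was reached by 218 peaks of young 2 and by 5903 to 31052 of the others. With young 2 left out of the rule 515 regions would be aged-only, and with aged 3 left out 6640; the part of these differences between lists in the count of 437 was not tested.

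In ATAC-seq a transposase inserts adapters where DNA is not covered by nucleosomes, and a peak marks a place with more insertions than its surroundings. Long-term haematopoietic stem cells renew themselves and give rise to all blood lineages, and with age they are known to expand in number while giving rise to more myeloid and platelet-biased progeny. Promoters of active genes are open in most cell types, whereas distal elements inside introns and between genes open in a more cell-type-specific way.

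Of the 31396 promoter windows of the RefSeq table (GRCm38.p6, 250 bases before to 50 after a start site), 6 overlapped an aged-only region. The 5 at protein-coding genes are printed because they are the places where an aged-only region meets a known start of transcription; each runs 5′ to 3′ along its gene. Galnt13 (a transferase that begins O-glycosylation) has its window at chr2:54436137-54436436 on the plus strand, Myo3a (a myosin of hair cells) at chr2:22227253-22227552 on the plus strand, and Car7 (a carbonic anhydrase) at chr8:104541059-104541358 on the plus strand. Sema6b (a transmembrane semaphorin) has it at chr17:56140294-56140593 on the minus strand and Tmem212 (a transmembrane protein) at chr3:27896319-27896618 on the minus strand. Capitals mark matches, on either strand, to any of the 8 motifs searched, whose letters are given with the counts that follow. No capital run joins matches of different motifs.
Galnt13: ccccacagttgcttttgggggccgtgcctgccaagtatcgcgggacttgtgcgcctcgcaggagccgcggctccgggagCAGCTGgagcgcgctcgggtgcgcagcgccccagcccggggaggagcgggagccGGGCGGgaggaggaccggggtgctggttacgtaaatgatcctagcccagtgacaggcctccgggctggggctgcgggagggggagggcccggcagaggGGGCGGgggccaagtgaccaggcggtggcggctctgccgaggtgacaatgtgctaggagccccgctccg
Myo3a: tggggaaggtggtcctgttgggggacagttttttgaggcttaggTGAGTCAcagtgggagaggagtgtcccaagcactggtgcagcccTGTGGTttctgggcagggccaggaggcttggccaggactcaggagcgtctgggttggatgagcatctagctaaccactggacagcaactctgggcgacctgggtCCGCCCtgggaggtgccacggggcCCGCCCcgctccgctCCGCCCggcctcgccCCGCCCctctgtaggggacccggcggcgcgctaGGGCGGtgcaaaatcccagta
Car7: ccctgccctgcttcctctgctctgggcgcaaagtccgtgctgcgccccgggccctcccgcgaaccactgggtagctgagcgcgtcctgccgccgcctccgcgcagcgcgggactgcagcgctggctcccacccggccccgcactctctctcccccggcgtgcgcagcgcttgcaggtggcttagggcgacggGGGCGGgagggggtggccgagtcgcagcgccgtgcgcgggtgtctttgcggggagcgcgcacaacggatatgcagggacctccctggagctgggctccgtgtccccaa
Sema6b: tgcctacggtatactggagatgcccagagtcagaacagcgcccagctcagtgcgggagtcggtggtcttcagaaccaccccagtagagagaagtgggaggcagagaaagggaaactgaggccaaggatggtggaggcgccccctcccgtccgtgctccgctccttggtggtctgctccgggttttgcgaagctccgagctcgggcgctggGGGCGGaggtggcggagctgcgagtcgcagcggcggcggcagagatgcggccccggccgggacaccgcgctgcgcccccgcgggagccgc
Tmem212: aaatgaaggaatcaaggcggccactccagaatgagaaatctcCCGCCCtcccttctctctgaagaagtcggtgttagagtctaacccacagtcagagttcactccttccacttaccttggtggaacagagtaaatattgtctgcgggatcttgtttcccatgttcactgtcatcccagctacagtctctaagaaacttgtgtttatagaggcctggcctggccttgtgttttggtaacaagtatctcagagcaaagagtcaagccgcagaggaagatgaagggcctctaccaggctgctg

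The GC box, GGGCGG, bound by Sp1-type factors, was in 5 of the 6 windows (83.3%), against 36.0% of all windows. The AP-1 motif, written TGANTCA, was in 1 window, that of Myo3a, against 7.84% of all. The same window held TGTGGT, the core of the motif that Runx factors bind, which was in 16.7% of all. An E-box with the letters CAGCTG was in the window of Galnt13 (16.3% of all), and the motif of erythroid zinc-finger factors with the letters AGATAA was in that of the lncRNA A930002C04Rik (11.2% of all), which is not printed. None of the 6 held the motif of Ets factors, written CCGGAAG (9.004% of all), the promoter box with the letters CCAAT (37.3%) or the cyclic-AMP response element, written TGACGTCA (1.83%). The 6 windows had a median GC content of 67.7%, with 53.0% over all windows and 63.3% over the 6903 windows that overlapped a region called in all 6 lists. With 6 windows these shares are a description, and a match of letters is not a binding site.

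The overlaps at these starts were not alike. The aged-only region at Myo3a (chr2:22227172-22227645) and that at Car7 (chr8:104541056-104541731) each covered the whole window, whereas the one at Galnt13 began 17 bases past the start site and shared 33 bases with the window. The region at Sema6b covered 180 bases of its window, and that at Tmem212 lay 125 bases upstream of the start site. A young peak lay 49 bp from the Car7 region, and the nearest young peak to the Galnt13 region was 5360 bp away. The −log10 p of the Galnt13 region stood at the 71.6th, 65.2nd and 90.4th percentile of lists aged 1, aged 2 and aged 3, and that of the Sema6b region at the 59.5th, 66.8th and 33.1st percentile. A percentile here is the rank of a peak's −log10 p among all distinct peaks of the same list, those outside the autosomes included. It depends on how many weak peaks a list holds: the median member was at the 71.6th percentile of aged 1 with a −log10 p of 3.88 and at the 53.1st of aged 2 with 4.19.

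The strongest aged-only region, ranked by its lowest percentile over the 3 aged lists, lay inside Nav2, a navigator protein of growing axons, at chr7:49321080-49321872. It stood at the 97.9th percentile in aged 1, the 88.4th in aged 2 and the 92.8th in aged 3, with a fold enrichment over the sample's own background, as the authors deposited it, of 9.09, 7.64 and 4.90. Its 3 summits lay within 44 bp of each other. The nearest young peaks were 2518, 1744 and 8058 bp away in young 1, young 2 and young 3.

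The next regions in rank lay in open stretches between genes or in very long genes. The one nearest to Trhr, the receptor of thyrotropin-releasing hormone, at chr15:44176001-44176336, stood at the 90.1st, 87.8th and 94.8th percentile of aged 1, aged 2 and aged 3. The one at chr15:56046774-56047380 had Sntb1, a syntrophin of the dystrophin complex, as its nearest gene, 139472 bp away, and a peak of young 2 lay 82 bp from it. The one inside Cdh13, a cadherin anchored to the membrane by a lipid, at chr8:118830193-118830693, stood at the 95.1st, 86.2nd and 90.7th percentile and was the most isolated of the 4, with the nearest young peak 10302 bp away.

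Behind these came regions inside Rftn1 (raftlin, a lipid-raft protein of lymphocytes), Lrrfip2, St3gal6 (a sialyltransferase that makes selectin ligands) and Rai1 (a chromatin-associated regulator), with lowest percentiles of 85.3, 83.3, 80.7 and 79.3. The other 12 of the first 20 had lowest percentiles between 74.5 and 77.0. Outside genes, the nearest coding genes were Nkx2-3 (a homeobox factor of spleen and gut), Skap1 (a T-cell adaptor) and Tm4sf1. Neurl1b (a ubiquitin ligase of the Notch pathway), Ptpn12 (a tyrosine phosphatase) and Rnf144b were also nearest genes. Their distances ran from 463 bp for Skap1 to 322254 bp for Tm4sf1. The rest lay inside Slc35f4, Oxr1 (a protein that protects against oxidative damage), Prune2, Mapkapk3 (a kinase activated by p38), Mark3 (a microtubule-affinity kinase) and the lncRNA Gm46355. In all, 11 of the 20 lay inside a coding gene, and those genes had a median length of 197240 bp. The 20 regions had fold enrichments from 3.52 to 9.13, and 11 of them had a young peak within 1 kb.

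**Figure D1:**
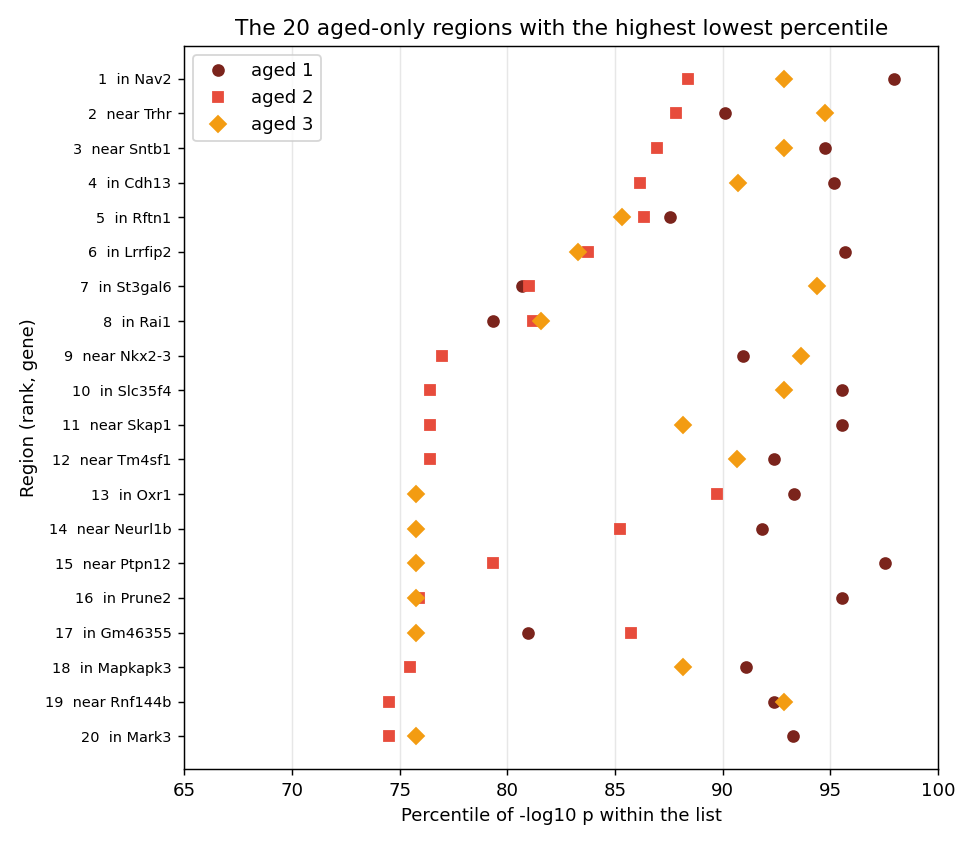
Percentile of the −log10 p within each list (x axis, from 65 to 100) of the 20 aged-only regions with the highest lowest percentile, labelled by rank and by the gene they lie in or nearest to, with 1 marker per aged list. The Nav2 region leads with 88.4 as its lowest value, and aged 2 or aged 3 is the lowest list for most of the 20.

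As a class the aged-only regions were of middling strength. Their median percentile was 71.6 in aged 1, 53.1 in aged 2 and 51.4 in aged 3, while regions called in all 6 lists had medians of 97.3, 95.6 and 95.2. Their median fold enrichment was 3.40, 3.13 and 3.27, next to 2.85, 3.07 and 3.27 over all peaks of the same lists and 7.83, 12.8 and 5.45 in regions called in all 6. The lowest of a region's 3 percentiles had a median of 26.4. For regions called in exactly 3 lists it was 38.4 with mixed ages and 22.3 with the 3 young lists. Among the aged-only regions the lowest percentile was at least 50 in 106, at least 75 in 18 and under 10 in 83. A −log10 q of at least 1.3 was reached in all 3 aged lists by 88 regions and in no aged list by 37. The weakest of the 3 lists was aged 1 for 101 regions, aged 2 for 174 and aged 3 for 162.

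**Figure D2:**
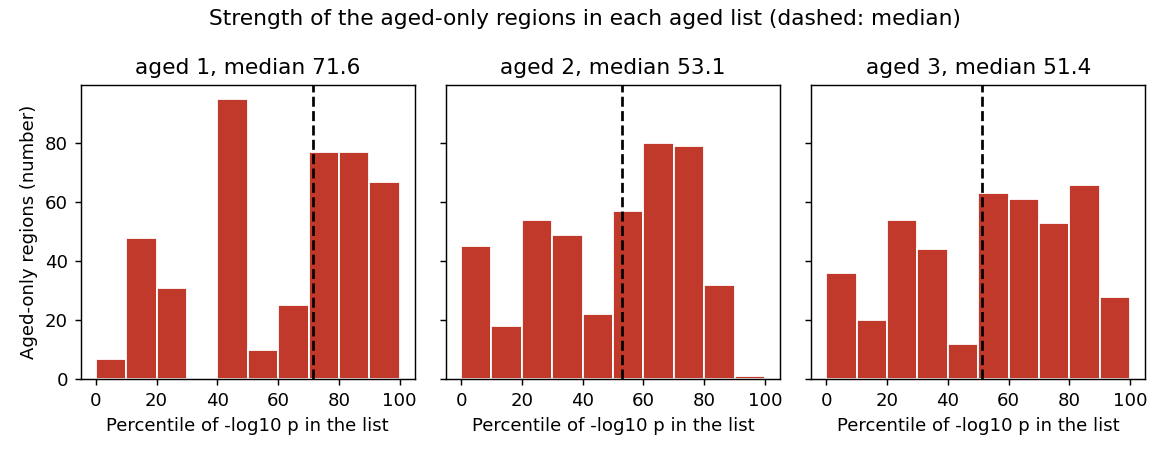
Number of aged-only regions (y axis) by the percentile of their −log10 p within each aged list (x axis, steps of 10), with the median as a dashed line. The medians are 71.6, 53.1 and 51.4, and 67 regions in aged 1, 1 in aged 2 and 28 in aged 3 are at the 90th percentile or above; tied −log10 p values share 1 percentile.

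At the other end, the 5 weakest regions lay inside Prkcq (a protein kinase C of T cells), Rnf144b, Rbms3 (an RNA-binding protein), the lncRNA Gm32124 and Cacna2d3 (a calcium channel subunit). Their lowest percentile, in aged 2 for all 5, was 0.0368, 0.0368, 0.173, 0.173 and 0.285. The Prkcq region was at the 71.6th percentile in aged 1 and the 3.59th in aged 3, and the Rnf144b region at the 84.9th and 75.8th. The same region can thus be a clear peak in 1 aged list and at the limit of calling in another.

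Just inside the rule, the lowest −log10 p of a member in any aged list was 2.01; every list ends at a p of 0.01. Just outside it, beside the 437, another 1083 regions were called in all 3 aged lists and 1 young list. Of these, 767 had their young call in young 3, at a median percentile of 73.9 there, 230 in young 1, at 81.3, and 86 in young 2, at 42.7. Regions called in 2 aged lists and no young list numbered 6223 for aged 1 with aged 2, 4673 for aged 1 with aged 3 and 2214 for aged 2 with aged 3. All told 16862 regions were called in the 3 aged lists, and the aged-only ones were 2.59% of them.

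The 3 aged peaks behind a member did not always meet. All 3 shared at least 1 base in 301 regions (68.9%), and the 3 summits lay within 100 bp of each other in 132 (30.2%), with a median range of 164 bp. For regions called in exactly 3 lists of mixed ages the median range was 121 bp and 44.0% were within 100 bp, and for those called in the 3 young lists alone it was 203 bp and 23.5%. The aged-only regions were 187 to 1118 bp wide, with a median of 416 bp, against 205 bp over all merged regions and 791 bp for those called in all 6 lists. For regions called in exactly 3 lists the median was 404 bp with mixed ages and 454 bp with the 3 young lists. Together the aged-only regions cover 193646 bp.

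Young peaks were often close by. The nearest peak of any young list was 3 to 25097 bp away, with a median of 1200 bp; it lay within 500 bp of 131 regions, within 1 kb of 194 and over 10 kb from 8. Taken list by list, the median distance was 2435 bp to a peak of young 1, 3538 bp to young 2 and 5925 bp to young 3. Those 3 lists hold 252914, 242417 and 107804 distinct autosomal peaks, and the aged lists 234785, 125193 and 125555, so distances follow list sizes in order.

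By position, 258 of the aged-only regions (59.0%, 95% Wilson interval 54.4 to 63.6) lay inside a protein-coding or lncRNA gene, and 213 (48.7%) inside a coding gene. The share inside a gene was 53.5% over all merged regions, 62.9% in the mixed sets of 3 lists, 59.1% in young-only regions and 86.9% in regions called in all 6 lists. Of the rest, 45 regions lay in a lncRNA and no coding gene, and 179 in neither, at a median of 32635 bp from the nearest coding gene. Near gene ends the difference from the shared regions was large: 48 aged-only regions (11.0%, interval 8.39 to 14.3) lay within 1 kb of an end of a gene, against 64.2% of those called in all 6 lists. The other comparison shares were 7.15% over all merged regions, 14.9% in the mixed sets and 8.80% in young-only regions. These are descriptions over regions, which are not replicates of an age, and carry no test.

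Measured to start sites, for the 423 members outside chromosome 18, distances were shorter than over all merged regions and longer than for regions shared by all 6 lists. Within 1 kb of a start site lay 28 (6.62%, against 3.90% of all merged regions), at 1 to 10 kb 91 (21.5%), at 10 to 50 kb 166 (39.2%), at 50 to 100 kb 58 (13.7%) and beyond 100 kb 80 (18.9%, against 26.3%). The median distance was 28121 bp, against 36441 bp over all merged regions, 21607 bp in the mixed sets and 25851.5 bp in young-only regions. Of the regions called in all 6 lists, 58.1% were within 1 kb of a start site. No member overlapped any of the 919 miRNA hairpins of the RefSeq table.

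**Figure D3:**
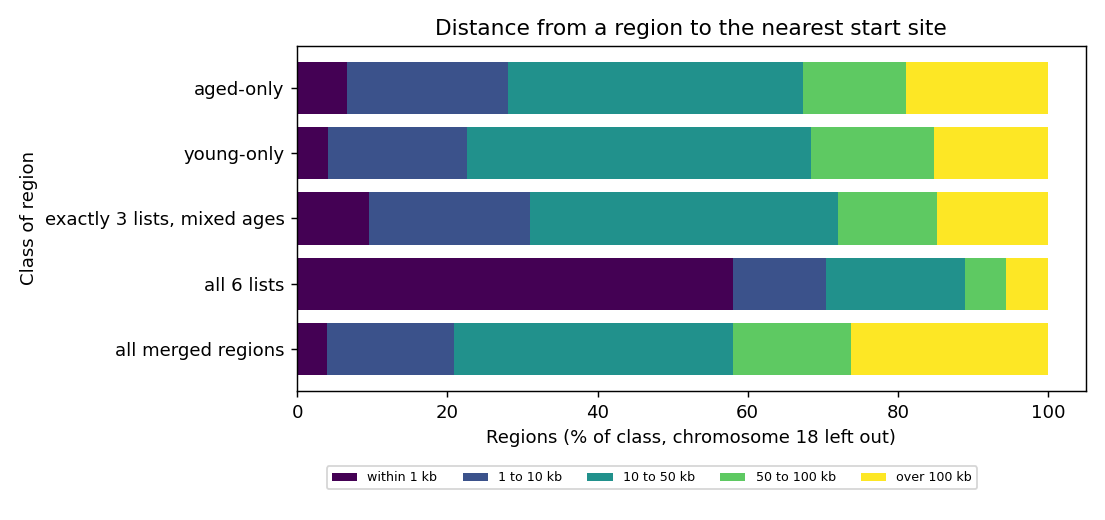
Share of regions (x axis, percent of each class outside chromosome 18) by distance to the nearest start site, in 5 steps from within 1 kb to over 100 kb, for aged-only regions and 4 comparison classes. Within 1 kb lie 6.62% of the aged-only regions and 58.1% of the regions called in all 6 lists.

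The 15 strongest members within 1 kb of a gene end lay at genes of varied roles. The region by Gas1, a growth-arrest protein and co-receptor of the Hedgehog pathway, lay 931 bp from its 5′ end and stood at the 94.4th, 82.3rd and 69.1st percentile of aged 1, aged 2 and aged 3. The region by Lgr5, the R-spondin receptor that marks stem cells of the gut, lay 65 bp from a gene end and stood at the 82.0th, 65.8th and 84.9th. At both, a young peak was close, at 277 bp and 220 bp.

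Hcst and Tyrobp encode signalling adaptors of natural killer and myeloid cells. The region inside Hcst lay 268 bp from its 3′ end and 398 bp from an end of Tyrobp, with percentiles of 59.9, 71.0 and 67.3. That by Mpeg1, which encodes a pore-forming protein of macrophages, lay 738 bp from its 3′ end with percentiles of 80.2, 77.6 and 63.8, and the nearest young peak was 1680 bp off. The others of the 15 were Slc35f4, Skap1, Galnt13, Rbck1 (a part of the linear ubiquitin ligase), Mcur1 (a regulator of mitochondrial calcium uptake), Myo3a, Calb1 (calbindin), F2rl1 (a protease-activated receptor) and the lncRNAs Gm10457 with Gm46355, 1700030M09Rik and Gm5420. Their lowest percentiles ran from 51.4 to 76.4.

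The 213 members inside coding genes fell in 210 genes, which is 1.02% of the 20665 autosomal coding genes. Adding genes that are the nearest one within 100 kb brings this to 350 genes, or 1.69%. The 210 genes were long, with a median of 101596 bp; the 267 coding genes that hold a young-only region had a median of 101721 bp, the hosts of mixed 3-list regions 56008.5 bp and all coding genes 17491 bp. Of the 210, 102 (48.6%) also held a region shared by all 6 lists, where 36.8% of all coding genes do. Both an aged-only and a young-only region lay in 6 coding genes, Cdh13, Dock4 and Nav2 among them, which are 2.86% of the aged-only hosts and 2.25% of the young-only hosts.

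The 2 leading intragenic members thus had a counterpart of the opposite pattern in the same gene. In Nav2 the young-only region lay 280860 bp from the aged-only one, and the gene held 88, 60 and 74 peaks in aged 1, aged 2 and aged 3 and 93, 73 and 71 in young 1, young 2 and young 3. In Cdh13 they were 451230 bp apart, and the gene held 154, 93 and 104 aged and 158, 113 and 59 young peaks. In Dock4, a guanine nucleotide exchange factor of Rac, the nearest such pair was 4504 bp apart, with 47, 22 and 22 aged and 57, 47 and 20 young peaks. Across all 3 genes the peak counts of aged and young lists overlapped.

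By gene, repeats were at most 2: there were 19 genes with 2 members inside them or nearest to them, and none with 3. In 7 of them both members lay inside: Aig1 (a lipid hydrolase), Chn2 (chimaerin, a Rac GTPase-activating protein), Polr3b (a subunit of RNA polymerase III), Sik3 (a salt-inducible kinase), Tnrc6a (a scaffold of miRNA silencing), Vsnl1 (a neuronal calcium sensor) and the lncRNA Gm36560. In the other 12 at least 1 of the regions lay outside: Acsl6, Ddx18, Galnt16, Mtcl1, Naaladl2, Prkag2, Prl2c3, Rnf144b, Slc16a7, Smc2, Sox14 and Tm4sf1. Regions outside lay from 2591 bp (Sox14) to 646954 bp (Slc16a7) from the gene. Those of Smc2 were 524540 and 273739 bp away, and those of Tm4sf1 322254 and 158049 bp. Only 2 pairs of members were within 10 kb of each other, and 24 neighbouring pairs were within 100 kb.

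The densest locus, seen after the values were known, was not a repeat at 1 gene. On chromosome 13, 4 members lay in chr13:12820933-12932373, a span of 111441 bp, with gaps of 59666, 31020 and 19132 bp, and were the only run of 3 or more members with gaps of at most 100 kb. The first and second were nearest to Prl2c3, at 20840 and 80757 bp, and the third to Prl2c2, at 83349 bp. The last lay at the lncRNA Gm40904, which it overlapped. The Prl2c genes are a family of placental prolactin-like hormones with near-identical copies. None of the 4 members lay inside Prl2c2 or Prl2c3, and Prl2c3 held no peak in any list. Whether uncertain read placement has a part in this run was not tested. The third of the 4 along the chromosome was the strongest, at the 78.8th, 72.0th and 68.2nd percentile of aged 1, aged 2 and aged 3, and the last was the weakest in aged 3, at a percentile of 0.842. A young peak lay 491, 46, 263 and 1089 bp from the 4 members in order.

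The closest pair, 166 bp apart, lay 2591 and 3174 bp from Sox14, a transcription factor of neural development, at chr9:99878761-99879177 and chr9:99879344-99879632. The first stood at the 24.2nd, 62.5th and 10.6th percentile of aged 1, aged 2 and aged 3 and the second at the 59.4th, 78.0th and 64.0th. The pair in Vsnl1 was 5823 bp apart. In Tnrc6a the members stood at the 90.1st, 86.4th and 20.01st and at the 91.8th, 73.9th and 61.9th percentile, and the gene held 26, 14 and 10 peaks in the aged lists and 21, 18 and 10 in the young ones. In Aig1 the counts were 21, 30 and 19 aged against 29, 28 and 8 young peaks, and in Sik3 29, 24 and 19 against 37, 19 and 22. In these 3 genes with 2 members, the numbers of peaks in aged and young lists overlapped.

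The lists of known stem-cell and ageing genes held 1 and 2 members, where 1.02% of all coding genes hold one. Young-only regions lay in the same numbers of these genes, 1 and 2. The median gene length was 19653 bp in the first list and 56829.5 bp in the second, against 17491 bp over all coding genes. By regions, 0.229% of the aged-only regions lay inside the first list, against 0.318% of the mixed sets and 0.188% of all merged regions. For the second list these shares were 0.458%, 0.252% and 0.202%. Of 34 stem-cell identity genes 1 (2.94%) held a member, Prdm16, a transcriptional regulator needed to maintain haematopoietic stem cells, with percentiles of 71.6, 38.4 and 64.7 at chr4:154454763-154455072. That gene held 46, 40 and 26 peaks in the aged lists and 53, 51 and 43 in the young ones. Of 42 genes whose RNA is known to be higher in aged stem cells, 2 (4.76%) held one: Oxr1, at the 93.3rd, 89.7th and 75.8th percentile, and Wwtr1 (TAZ, a co-activator of the Hippo pathway), at the 78.8th, 80.9th and 20.01st. Among 25 AP-1 and immediate early genes Dusp1, a phosphatase of MAP kinases, was the nearest coding gene of 1 member, 25281 bp away. That member lay inside the lncRNA Gm34455. Among 27 regulators of DNA methylation and chromatin Ezh1, a histone H3 methyltransferase, held 1.

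Among markers of other cells the counts differed by list, beside 1.69% of all coding genes holding a member or being the nearest gene of one within 100 kb. Of 20 megakaryocyte and platelet genes 1, Nfe2, a transcription factor of platelet formation, had a member 1671 bp away, with percentiles of 91.7, 44.0 and 66.9. Of 17 endothelial and stromal genes 3 (17.6%) were reached: Col1a1 (a collagen chain) held 1, and Cdh5 (VE-cadherin) and Col1a2 were the nearest coding genes of 1 each, at 72637 and 16207 bp. The member nearest to Cdh5 lay inside the lncRNA Gm32728. Young-only regions reached 1 of the 17, and 1 aged-only and 1 young-only region lay inside them. These genes had a median length of 42892 bp, against 17491 bp over all coding genes. No member was inside or, within 100 kb, nearest to any of 35 inflammation and interferon genes, 23 myeloid, 15 B lymphoid, 18 T and NK, 14 erythroid and 12 mast cell, basophil and eosinophil markers, 21 cell cycle and senescence genes, 18 genes of the nuclear lamina and polarity or 14 housekeeping genes. This holds for the listed genes only. Hcst, Mpeg1, Skap1 and Prkcq, described above as genes of natural killer cells, macrophages or T cells, have a member and are in none of these lists.

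As a check of the label, peaks at the gene or 1 kb around it were called in 10 to 12 of 12 long-term stem-cell markers per list, 10 of them in all 6 lists. They were also called in 7 to 18 of 23 myeloid, 11 to 13 of 15 B lymphoid, 8 to 13 of 14 erythroid, 14 to 19 of 20 megakaryocyte and platelet, 11 to 17 of 18 T and NK, 7 to 11 of 12 mast cell, basophil and eosinophil and 14 to 17 of 17 endothelial and stromal markers. Aged 3 was lowest or joint lowest in all of these lists but the B lymphoid one. The part of these other cells in the aged-only regions was not tested.

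Long genes of neuronal adhesion and synapses gave the highest count of any list, 7 of 48: Grm8, Macrod2, Lsamp, Pcdh15, Fstl5 and Galnt13 held a member and Lrp1b was the nearest gene of one. Those 48 genes have a median length of 1139600 bp. Read by regions, 1.37% of the aged-only regions lay inside them, against 0.574% of young-only regions, 0.798% of the mixed sets and 2.03% of all merged regions, so the aged-only share was below that of all regions. In Lsamp, which encodes a limbic adhesion protein, the lists held 140, 41 and 106 aged and 169, 221 and 23 young peaks. Olfactory receptor genes, a family of sensory neurons, were 0.857% of the genes reached and 5.34% of all coding genes. Vomeronasal receptor (0.571% against 1.71%), zinc finger (1.43% against 1.89%) and interleukin and receptor genes (0.286% against 0.377%) were also below. Solute carrier (2.57% against 1.82%), potassium channel (1.14% against 0.445%), cadherin (1.14% against 0.460%) and Hox genes (0.286% against 0.189%) were above. Gene length was not taken into account in these shares.

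By chromosome the members followed the merged regions. They numbered from 13 on chromosome 19 to 31 on chromosome 5. The share of members divided by the share of all merged regions ran from 0.760 on chromosome 14 to 1.34 on chromosome 17.

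The neighbourhoods of the members offered a measure that the selection did not use directly, though it is not free of the choice. Aged peaks at a member merge into it and are left out. A young peak at such a place can only lie beside the member, by the rule, and is counted. Of each list's autosomal peaks, the share within 10 kb of an aged-only region, peaks in the region itself left out, was 0.412%, 0.561% and 0.514% in aged 1, aged 2 and aged 3 and 0.428%, 0.410% and 0.560% in young 1, young 2 and young 3. The mean was 0.496% ± 0.0763 (SD, n = 3) in aged and 0.466% ± 0.0819 (SD, n = 3) in young, a difference of 0.0293 percentage points that was smaller than the spread within either age (exact 2-sided permutation p = 0.7; the smallest p that 3 against 3 allows is 0.1). The 2 ages overlapped, and without aged 2 the difference was −0.00345 points. Counted by members, 91.8%, 75.7% and 74.8% of them had a flanking peak in aged 1, aged 2 and aged 3 and 90.4%, 83.3% and 66.4% in young 1, young 2 and young 3.

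Calls in lists that took no part in the choice did not differ between ages beyond the spread of the 3 comparisons. With aged 1 and young 1 left out, 3207 regions were called in both other aged lists and neither other young list; aged 1 called 19.1% of them and young 1 called 18.3%. With aged 2 and young 2 left out, aged 2 called 8.83% of 5518 regions and young 2 called 7.72%. With aged 3 and young 3 left out, aged 3 called 10.8% of 11023 regions and young 3 called 39.8%. The mean difference, aged minus young, was −9.05 percentage points ± 17.3 (SD, n = 3 pairs), with an exact 2-sided sign-flip p of 1, where 0.25 is the smallest p that 3 pairs allow. Without the third pair the mean was 0.927. The pairs are not independent, since the left-out lists of each pair help to choose the regions of the others. Neither the SD nor the p therefore rests on 3 independent values.

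Lists differ in how much they call, so the same rates were taken over all other regions with calls in 2 of the 4 choosing lists. There the difference was 2.04, 17.2 and −8.79 percentage points for the 3 pairs. The aged-only choice fell below this by 12.5 points on average (SD 9.95, n = 3 pairs, exact sign-flip p = 0.25, the smallest that 3 pairs allow). The pairs share lists here too, so that p does not rest on independent values. Regions chosen in the same way as young-only were called at 16.5%, 41.3% and 4.11% by left-out aged 1, aged 2 and aged 3. Young 1, young 2 and young 3, left out with them, called 17.1%, 13.7% and 5.38%. Over all 9 ways to leave out 1 aged and 1 young list, the aged list called more of the regions chosen as aged-only in 4, and the differences ran from −29.0 to 6.02 points. These 9 values share lists and are given without a test.

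**Figure D4:**
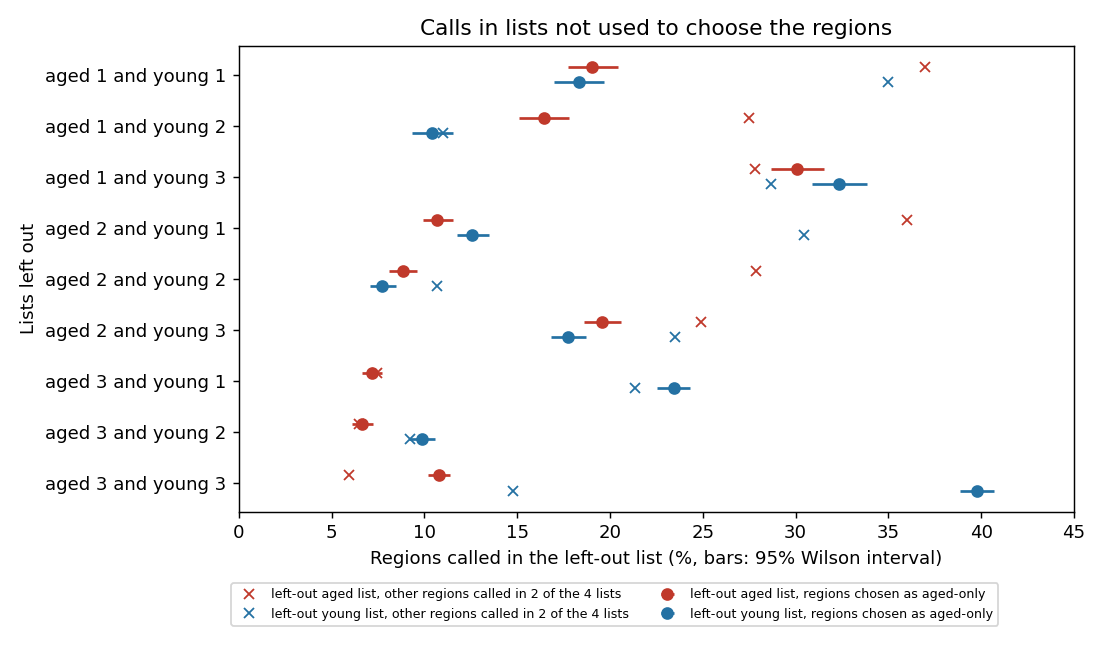
Share of regions (x axis, percent) called in an aged (red) and a young (blue) list that were both left out of the choice, for the 9 combinations of left-out lists. Circles with 95% Wilson intervals are regions chosen as aged-only by the other 4 lists, and crosses are other regions called in 2 of those 4; young 3 called 39.8% and aged 3 called 10.8% in the lowest line.

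The count of 437 was then set beside that of every other set of 3 lists. Of the 17624 regions called in exactly 3 lists, the aged-only ones were 2.48%. Among the 20 possible sets of 3 lists, 13 had more such regions and 6 had fewer. The 18 mixed sets had 222 to 3541, with a median of 552.5, and the 3 young lists had 523. The aged-only count itself was 142 among peaks with a −log10 q of 1.3 or more, 243 where no young peak was allowed within 1000 bp, and 1046 where peaks up to 500 bp apart were joined. The sets are given as counts with no test, since they share lists. The highest count, 3541, was that of aged 1, aged 2 and young 3, followed by 2891 for aged 2, young 1 and young 3. Aged 2 and young 3 were also the most alike of the 9 aged and young pairs, with 0.216 as the fraction of regions called in either that were called in both.

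**Figure D5:**
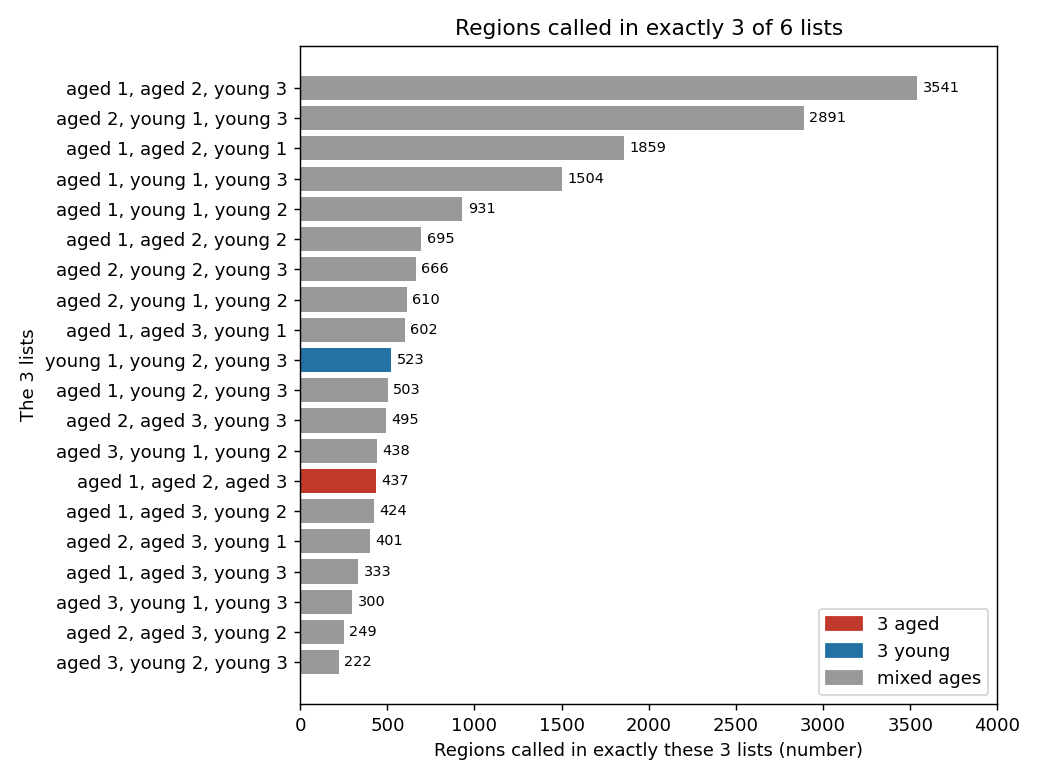
Number of regions (x axis) called in exactly the 3 lists named on the y axis, for all 20 sets of 3 lists, with the aged set in red, the young set in blue and mixed sets in grey. The aged set holds 437 regions, 14th of the 20, and the young set 523.

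In their properties, too, the aged-only regions stood within the range of the 20 sets. By share within 1 kb of a gene end they were the 11th highest of 20, by share inside a gene the 13th, by median lowest percentile the 7th, by median width the 12th and by share of summits within 100 bp the 7th.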

How the data were processed

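One list of ATAC-seq peaks per sample was analysed, 3 aged and 3 young. Per the submitters' processing notes, Bowtie2, SAMtools, Picard and MACS2 were used on mm10; versions, parameters, read depth and any shift of reads for the transposase are not given in the sources used here. Each deposited list gives per peak a score (10 times the −log10 p, capped at 1000), a fold enrichment, which is a ratio over the sample's own background, its summit and the −log10 of p and of q. All are the authors' values, called per sample, and were used to describe and rank peaks within a list.

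Rows with the same interval were taken as 1 peak, and autosomal peaks (chromosomes 1 to 19) of all 6 lists that shared at least 1 bp were merged to 844567 regions. Gene positions are those of RefSeq on GRCm38.p6 (the mm10 assembly), and start sites from the RefSeq promoter windows of the same build (31396 windows, none on chromosome 18). The gene of a region is the protein-coding gene it overlaps, otherwise the lncRNA it overlaps, otherwise the nearest protein-coding gene. The members and gene lists were chosen with earlier results of these data known.

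Regions named are the 20 with the highest lowest percentile, the 5 with the lowest, the first 15 within 1 kb of a gene end, genes with 2 regions and listed genes with 1 within 100 kb. Shares carry 95% Wilson intervals over regions, which cover counting error only. Values per list were compared by exact 2-sided permutation or sign flips. Merging and distances were tested on simulated lists. Python 3.11.15, numpy 2.4.6, pandas 2.3.3, scipy 1.17.1 and matplotlib 3.10.9 were used. Alternatives were other peak limits, overlaps, windows and left-out lists.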

Additional observations from a re-analysis of the deposited data

How the results depend on the processing

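The count of 437 aged-only regions depended on how peaks were filtered and joined. It was 142 with peaks of −log10 q of at least 1.3 (88 of them among the 437), 247 with the 100000 strongest peaks of each list (183 shared), 364 with a 50 bp overlap (356 shared), 1046 with peaks up to 500 bp apart merged and 243 with no young peak allowed within 1000 bp. Leaving out 1 list at a time gave 515 to 6640, the highest without aged replicate 3; without young replicate 3 it was 1204, without aged replicate 1 it was 2620 and without aged replicate 2 it was 5092. A rule over 5 lists is looser by construction.

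The share within 1 kb of a gene end was 14.8% under the q limit, 16.2% with the strongest peaks, 7.55% with joined peaks and 7.41% with the young margin; a 5 kb window gave 26.8%, and a 1 kb window around start sites, chosen after seeing the data, 6.62%. Leaving out 1 list gave 7.17% to 19.9%, the highest without young replicate 3. The share inside a gene was 48.7% with protein-coding genes alone, and 54.4% to 65.4% with 1 list left out. The median lowest percentile was 66.0 under the q limit and 51.4 with the strongest peaks, and 22.0 to 43.1 with 1 list left out. The cause of these differences was not tested.

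The difference in flanking peaks, 0.0293 percentage points, stayed above 0 with other windows and peak limits. With 1 list left out it ranged from −0.00345 to 0.0763, the negative value without aged replicate 2. As a replicate block, with differences taken within each number, it was 0.0293 again, with an exact sign-flip p of 1. Same-numbered samples, which share the "exp" number of their titles, did not deviate together: the correlations over all regions were 0.0114, −0.155 and −0.166, below those of aged 2 with young 3 (0.188) and aged 3 with young 2 (0.145). Whether the title numbers mark a shared run is not stated. The main comparison of flanking peaks did not pair samples by number. The main comparison of calls in left-out lists did, as it left out same-numbered aged and young lists together.

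The difference in calls of left-out lists was −9.05 percentage points, −9.42 under the q limit, −10.6 with the strongest peaks and −4.77 with no replicate block, over all 9 combinations. Leaving out 1 number at a time gave −14.1 to 0.927, the positive value without replicate 3. Read depth is not given, so a peak missed at low depth and a closed region cannot be told apart.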
